A study of Mus musculus with 6 samples.

Results

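Genes that mark cells other than keratinocytes were followed in libraries of basal keratinocytes sorted from mouse ear epidermis. The 37 markers were chosen by name, with earlier results of these data known, to judge how pure the sorted cells were. Of these, 5 are found in leukocytes at large, 8 in T cells, 7 in Langerhans cells and other myeloid cells, 8 in melanocytes, 3 in Merkel cells, 4 in fibroblasts and mural cells and 2 in endothelium. They took 38 of the 49671 rows of the expression table, because 2 rows carry the name Itgam. Of these 38 rows, 23 passed the filter on low values and were tested, and 15 were not.

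The study compared castrated males, females and intact males of CD1, an outbred albino stock, with 2 libraries per group. The labels name no engineered allele and no agent, and give neither the age of the mice nor the time since castration. Each library held polyA RNA of 100000 living cells that stained for integrin alpha 6, a protein of the basal layer, and not for CD34, a protein of the hair follicle bulge. Cells of 2 mice from a single litter were pooled in each library. The spread between the 2 libraries of a group is thus a spread between pools. Litter cannot be told apart from library, and the groups may differ in litter. Besides integrin alpha 6 and CD34, the sort used no marker of leukocytes, melanocytes or stromal cells. How the gates on integrin alpha 6 and CD34 acted on such cells was not tested.

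The basal layer of mouse epidermis holds more than keratinocytes. Langerhans cells, the antigen-presenting cells of the epidermis, and dendritic epidermal T cells, which carry a gamma delta receptor, lie between the keratinocytes. Melanocytes, which in pigmented mice make pigment for neighbouring cells, and Merkel cells, which sense touch, sit on or near the basement membrane. Fibroblasts, mural cells and endothelium belong to the dermis underneath, which was peeled off after trypsin. In bulk RNA, fewer cells of a type and less RNA per cell cannot be told apart.

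Libraries held 8412487 to 9648154 reads assigned to genes, so that 1 read amounted to 0.102 to 0.128 CPM, the reads of a gene relative to the library's total, and 3 reads, taken here as the floor, to 0.307 to 0.385 CPM. Floors and Poisson intervals cover counting error only. The keratinocyte genes matched the labelled cell type. Krt14, a keratin of basal keratinocytes, stood at 12468 and 14094 CPM in castrated males, 13585 and 17440.5 CPM in females and 13134 and 13392 CPM in males, and Itga6, which encodes integrin alpha 6, at 361 and 361 CPM in castrated males, 317 and 369.6 CPM in females and 373 and 368 CPM in males. Cd34 stood at 2.62 and 2.73 CPM in castrated males, 2.35 and 2.31 CPM in females and 1.49 and 3.05 CPM in males. Over the genes with enough reads, the 2 libraries of a group were farther apart than counting error, by a chi-square of 4.79 for each degree of freedom in castrated males, 13.6 in females and 12.9 in males.

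All 7 kinds of marker were low beside the keratinocyte genes. Of the 38 rows, 34 stayed under 20 CPM in every library, 13 had under 10 reads in every library, and 25 had at least 1 read in each. The exceptions above 20 CPM were Thy1, Pmel, Csf1r and Dcn. Per kilobase of exon, the order by mean level began with Thy1 (25.5 CPM per kb), Pmel (9.52), Cd52 (6.05), Cd207 (4.29) and Csf1r (3.23). On that scale Ptprc, the CD45 gene of all leukocytes, came to 0.00163% to 0.00359% of Krt14 within a library, Pmel to 0.0835% to 0.178% and Dcn to 0.00775% to 0.0481%. These percentages are ratios of reads per kilobase of all annotated exons of a gene, and give no share of cells.

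**Figure D1:**
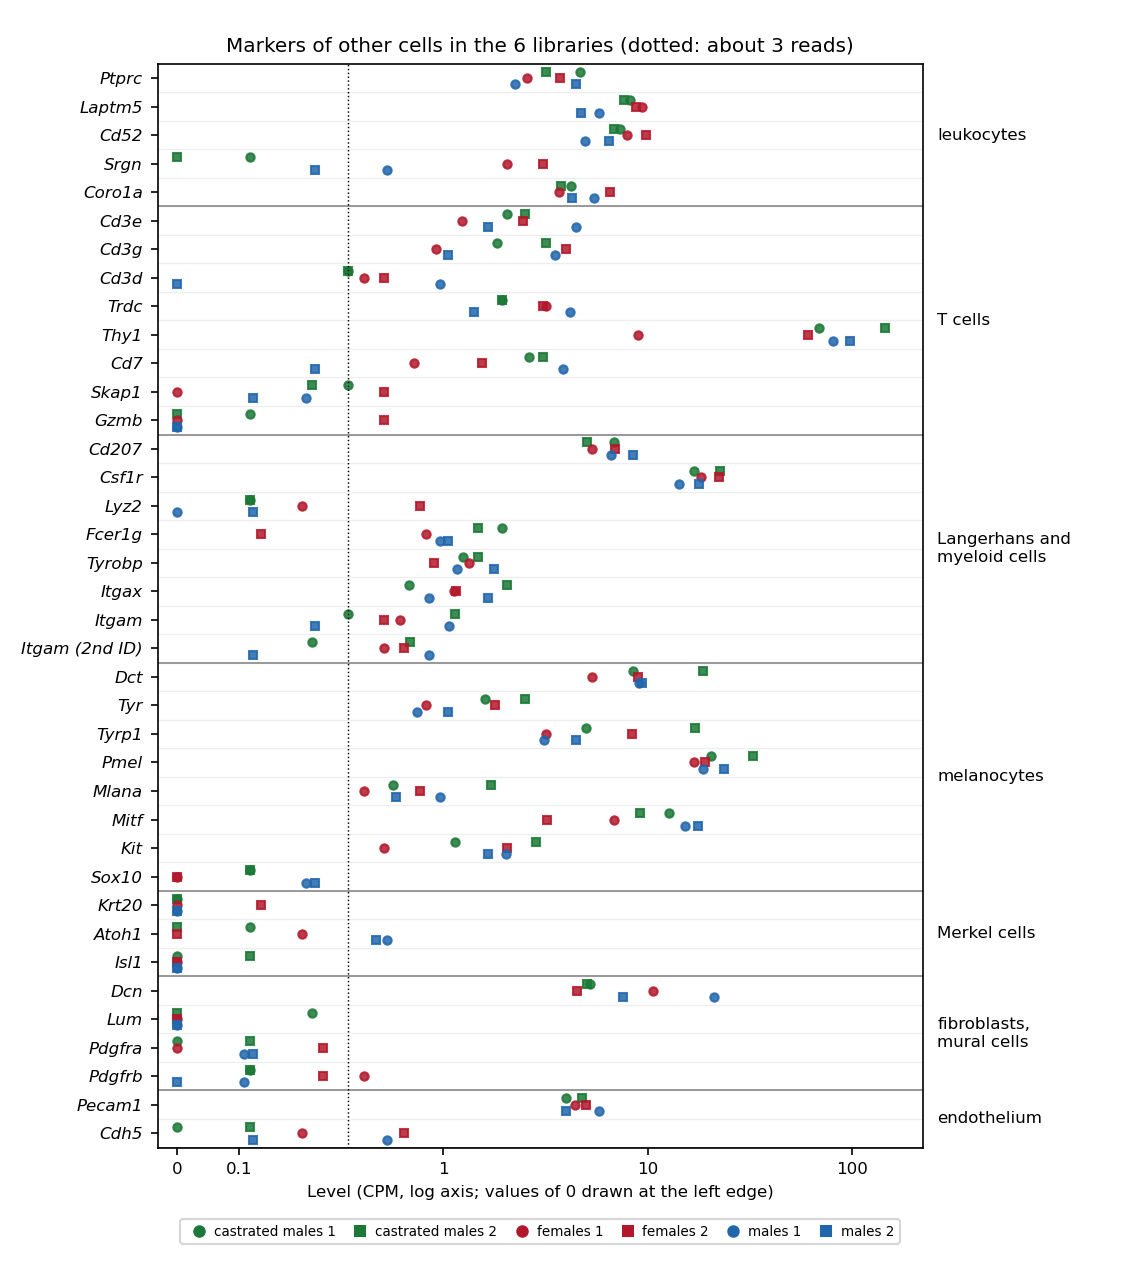
Level of each marker in the 6 libraries in CPM on a logarithmic axis, with values of 0 at the left edge and a dotted line near 3 reads. Circles are replicate 1 and squares replicate 2. Thy1 reached 144 CPM in castrated male replicate 2, whereas the Merkel cell genes and most fibroblast genes lay at or near the dotted line.

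Summed over each kind, the levels showed which cells' transcripts were present and how they varied. The 8 melanocyte markers summed to 49.8 and 84.6 CPM in castrated males, 33.8 and 44.1 CPM in females and 49.8 and 58.6 CPM in males. The 5 pan-leukocyte markers summed to 24.5 and 21.4 CPM in castrated males, 25.5 and 31.8 CPM in females and 18.9 and 20.1 CPM in males, with both female libraries at the top. The Langerhans and myeloid markers were the steadiest, at 28.1 and 34.5 CPM in castrated males, 28.1 and 33.3 CPM in females and 25.7 and 31.3 CPM in males. T cell markers summed to 77.5 and 155 CPM in castrated males, 15.3 and 73.0 CPM in females and 97.7 and 102 CPM in males, and Thy1 gave most of it in every library, though only 8.90 of 15.3 CPM in female replicate 1. Without Thy1, a sum added after the data were seen, they came to 9.21 and 11.3 CPM in castrated males, 6.44 and 12.6 CPM in females and 17.1 and 4.46 CPM in males. Both the highest and the lowest of these last sums belonged to males.

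Between females and males, 2 of the 23 markers tested were called, beside 6.1% of the 15413 genes tested. Srgn, whose product packs the granules of leukocytes, was higher in females, as were 3.7% of genes. It passed the filter on low values only through the 2 female libraries, so its place among the markers tested depends on the group where it was high. Mitf, a transcription factor of melanocytes and other cells, was lower, as were 2.39%. At an unadjusted p below 0.05 there were 5 markers, beside 24.9% of genes. Of the 23 fold changes 9 were positive and 14 negative, with a median log2 fold change of -0.06, against -0.01 over all genes tested. The 2 groups did not overlap for 8 of the 23 markers, and they did not overlap for 53.7% of all genes tested. Calls are limma tests with Benjamini-Hochberg adjustment over all genes tested and an adjusted p below 0.05, on 3 residual degrees of freedom.

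Between castrated males and males, 0 of the 23 markers were called, beside 0.0389% of genes, which were 6 genes. At an unadjusted p below 0.05 there were 2 markers, Dcn, a fibroblast proteoglycan gene, lower and Laptm5, a lysosomal protein gene of leukocytes, higher in castrated males, beside 5.93% of genes. The median log2 fold change of the markers was 0.16, with 14 positive and 9 negative values. The 2 groups did not overlap for 9 of the 23 markers and for 35.5% of all genes tested.

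Between castrated males and females, Srgn alone was called, lower in castrated males, beside 1.73% of genes in either direction and 1.15% lower. At an unadjusted p below 0.05 there were 4 markers, Srgn, Fcer1g, Mitf and Thy1, beside 21.6% of genes, and the groups did not overlap for 9 markers, beside 57.7% of genes. Srgn passed the filter on low values only through the females and Fcer1g only through the castrated males. For both, the place among the markers tested depends on the group where the gene was high. The median log2 fold change was 0.22, against 0.01 over all genes tested, with 14 positive and 9 negative values. All 6 melanocyte markers tested had positive values, with 0 called, and 4 of the 5 pan-leukocyte markers had negative ones. Of the 15413 genes tested, 7899 had positive values. Castrated male replicate 2 was the highest library for 6 of the 8 melanocyte markers. Each group enters 2 of the 3 comparisons, so they share libraries.

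**Figure D2:**
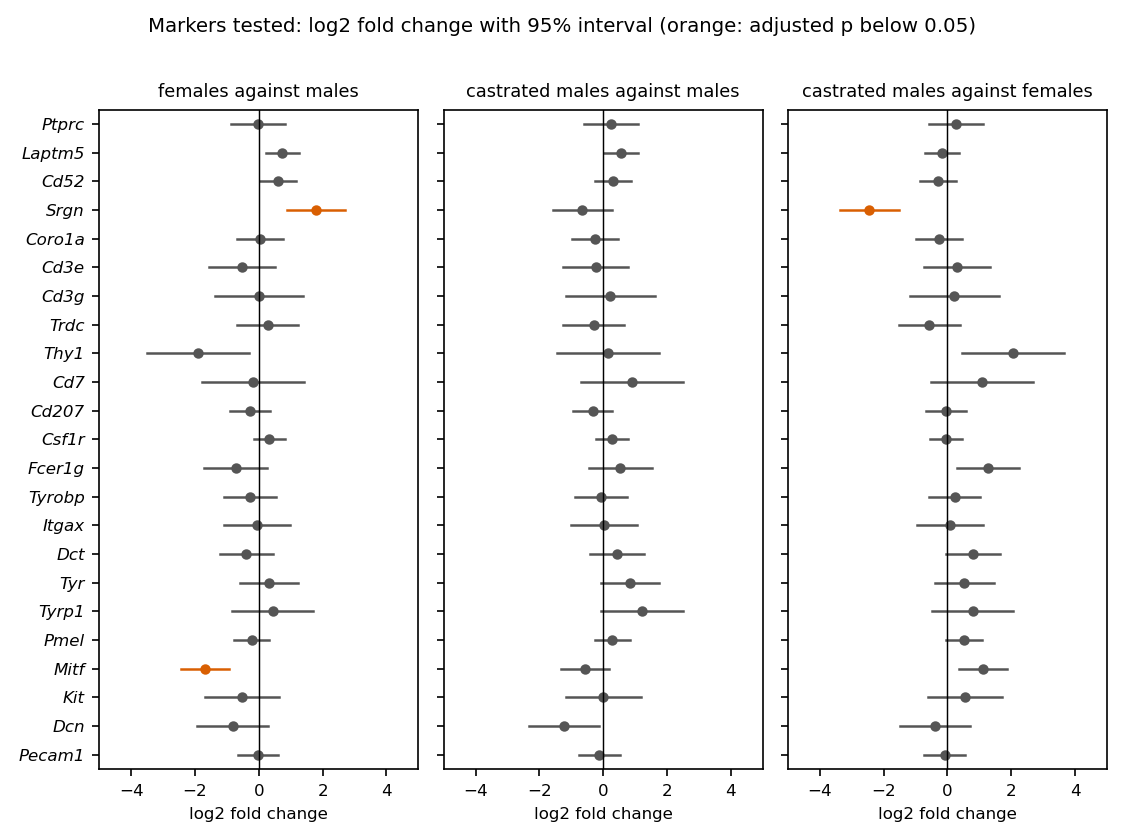
Log2 fold change of the 23 markers tested, with the 95% interval of the limma fit, in the 3 comparisons. Orange marks an adjusted p below 0.05: Srgn (1.79) and Mitf (-1.69) in females against males, and Srgn (-2.45) in castrated males against females.

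Among melanocyte genes, those of the pigment enzymes and melanosome proteins were highest in castrated male replicate 2, and Mitf had another order of libraries. Tyr encodes tyrosinase, which starts melanin synthesis in pigmented mice, and Tyrp1 and Dct encode related enzymes that act after it. All 3 are textbook targets of the MITF protein, which binds a CATGTG core in their promoters, and their promoter windows are shown for that reason. The windows run from 250 bases before to 50 bases after the annotated start, 5′ to 3′ on the gene's strand, from RefSeq on GRCm38.p6. Capitals mark CATGTG or its reverse complement CACATG.

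Tyr, chr7:87493463-87493762, minus strand: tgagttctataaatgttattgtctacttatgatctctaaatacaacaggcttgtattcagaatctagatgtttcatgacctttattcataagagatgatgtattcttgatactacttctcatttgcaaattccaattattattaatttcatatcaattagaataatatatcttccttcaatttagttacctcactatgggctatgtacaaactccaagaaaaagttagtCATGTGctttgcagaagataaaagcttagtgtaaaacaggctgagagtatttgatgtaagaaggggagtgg
Tyrp1, chr4:80833963-80834262, plus strand: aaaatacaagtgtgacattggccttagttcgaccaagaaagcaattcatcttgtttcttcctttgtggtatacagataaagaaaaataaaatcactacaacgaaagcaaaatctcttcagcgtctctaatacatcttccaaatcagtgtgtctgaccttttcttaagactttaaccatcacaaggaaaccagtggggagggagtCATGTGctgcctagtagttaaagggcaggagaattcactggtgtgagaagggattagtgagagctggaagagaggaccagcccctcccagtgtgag
Dct, chr14:118052197-118052496, minus strand: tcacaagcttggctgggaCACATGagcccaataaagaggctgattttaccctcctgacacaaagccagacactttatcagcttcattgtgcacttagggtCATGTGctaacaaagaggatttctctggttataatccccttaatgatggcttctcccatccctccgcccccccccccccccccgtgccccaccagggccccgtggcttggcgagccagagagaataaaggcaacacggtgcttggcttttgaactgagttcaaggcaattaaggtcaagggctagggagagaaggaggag

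The first base of the core lay 21 bases before the start in Tyr, 46 in Tyrp1 and 232 and 150 in Dct. In each of the 3 windows, 1 core stood within the same 10 letters, GTCATGTGCT, the longest run around the core that the 3 windows share. The 6 letters of the core, on either strand, occurred in 14.2% of all 32851 mouse promoter windows of this length, and the 10 letters, which contain them, in 61 windows, or 0.186%. Of the markers, 22 genes had a window, and Tyr, Tyrp1 and Dct, all among the 5 melanocyte genes with one, were the 3 that held the core. The letters were chosen after these sequences were read. A match describes the letters of the window and no binding in these cells.

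Tyrp1 stood at 5.00 and 17.1 CPM in castrated males, 3.17 and 8.33 CPM in females and 3.09 and 4.46 CPM in males. Castrated male replicate 2 was the highest, and castrated male replicate 1 lay between the 2 female libraries. The log2 fold change was 1.22 ± 0.56 for castrated males against males (limma, adjusted p = 0.862) and 0.79 ± 0.56 against females (adjusted p = 0.445), and without castrated male replicate 2 these values became 0.39 and -0.05. Dct stood at 8.42 and 18.6 CPM in castrated males, 5.32 and 8.97 CPM in females and 9.05 and 9.40 CPM in males, with castrated male replicate 2 again the highest and the other 5 libraries within 5.32 to 9.40 CPM. Tyr was rarer, at 1.59 and 2.50 CPM in castrated males, 0.818 and 1.79 CPM in females and 0.746 and 1.06 CPM in males, and both castrated male libraries were above both male libraries (log2 fold change 0.85 ± 0.40, adjusted p = 0.867).

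Pmel, which builds the fibrils of the melanosome, was the highest melanocyte marker, at 20.2 and 32.7 CPM in castrated males, 16.8 and 19.0 CPM in females and 18.6 and 23.6 CPM in males. Castrated male replicate 2 was again at the top, and the log2 fold change against males was 0.29 ± 0.24 (limma, adjusted p = 1.000), with an interval of -0.26 to 0.84. Reads of Pmel may be shared with Dgka and Cdk2, which overlap it on the opposite strand by 105 and 34 bases of exon and are expressed, since no source used here gives the strand setting of the counting. Mlana, a melanosome protein gene, had 5 and 15 reads in castrated males, 4 and 6 reads in females and 9 and 5 reads in males and was not tested. Kit, the receptor that melanocytes and mast cells need for survival, stood at 1.14 and 2.85 CPM in castrated males, 0.511 and 2.05 CPM in females and 2.02 and 1.64 CPM in males. Sox10, a transcription factor of the neural crest lineage, had 1 and 1 reads in castrated males, 0 and 0 reads in females and 2 and 2 reads in males, at or under the floor in every library, and no fold was computed.

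Castrated male replicate 2 had the highest level of 6 of the 8 melanocyte markers, the exceptions being Mitf and Sox10, which were highest in male replicate 2. Per length, Tyrp1 came to 20.03% and 42.36% of Pmel in castrated males, to 15.3% and 35.6% in females and to 13.4% and 15.3% in males. Tyrp1 was thus higher relative to Pmel in replicate 2 of castrated males and of females than in the other 4 libraries. Dct came to 12.3% to 22.1% of Pmel across the 6 libraries. Of 8 further melanocyte genes (Slc45a2, Oca2, Gpr143, Trpm1, Mc1r, Ednrb, Pax3 and Slc24a5), 3 could be tested and 0 were called in any comparison. At an unadjusted p below 0.05 there was 1 in each comparison. Castrated male replicate 2 was the highest library for 4 of these 8.

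Mitf (ENSMUSG00000035158, chr6:97807052-98021349, plus strand, GRCm38) stood at 12.7 and 9.11 CPM in castrated males, 6.85 and 3.21 CPM in females and 15.1 and 17.6 CPM in males. The 2 male libraries were above the 2 castrated male libraries, and these above the 2 female libraries, with no overlap. Its log2 fold change was -1.69 ± 0.33 in females against males (limma, adjusted p = 0.0269), -0.58 ± 0.33 in castrated males against males (adjusted p = 0.940) and 1.11 ± 0.33 in castrated males against females (adjusted p = 0.115). With 1 library left out, the remaining library of its group is assumed to vary as the other groups do, here and for every such value. The call between females and males was kept without female replicate 1 (-2.18, adjusted p = 0.00896) and lost without each of the other 5 libraries, with values of -1.20 to -1.79 and adjusted p-values of 0.0509 to 0.174. Without female replicate 1, Mitf was also called in castrated males against females (1.61, adjusted p = 0.0265). Mitf has promoters used outside melanocytes. The melanocyte sum without Mitf, added after the data were seen, was 37.1 and 75.5 CPM in castrated males, 27.0 and 40.9 CPM in females and 34.7 and 41.0 CPM in males.

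**Figure D3:**
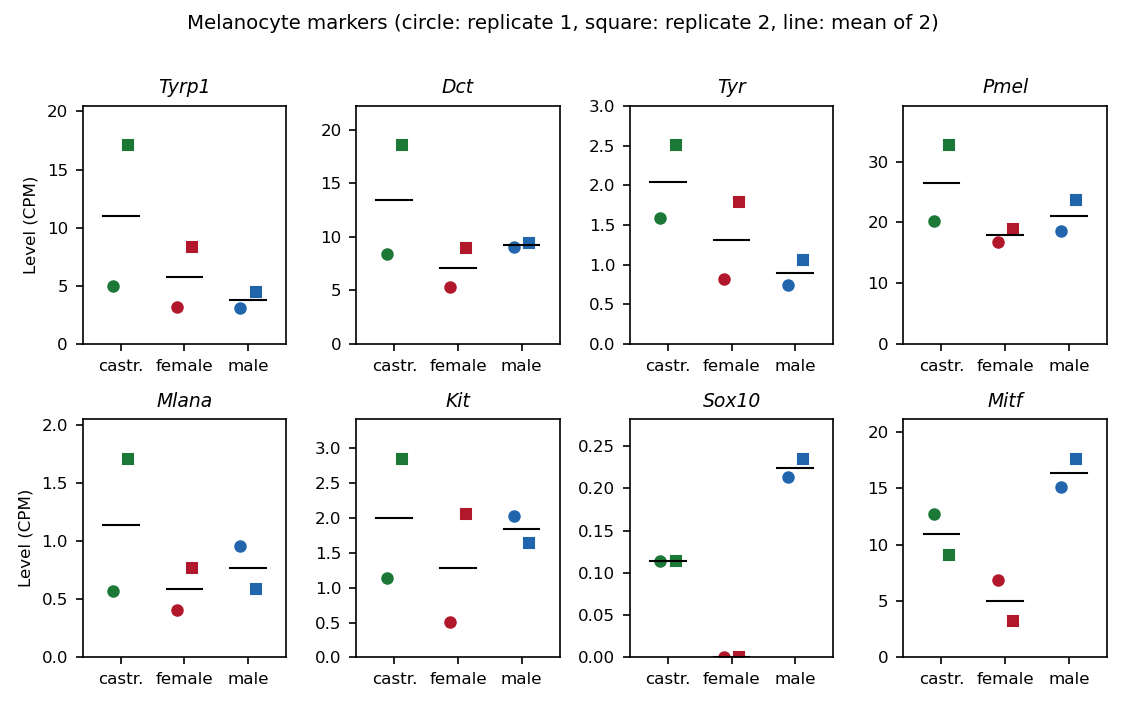
Levels of the 8 melanocyte markers in CPM, with 1 point per library, circles for replicate 1, squares for replicate 2 and a line at the mean of 2. Castrated male replicate 2 is at the top of 6 panels, while Mitf falls into separate ranges for males, castrated males and females.

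Pan-leukocyte genes differed in direction from each other. Srgn (ENSMUSG00000020077, chr10:62493833-62527451, minus strand, GRCm38), the serglycin gene, had 1 and 0 reads in castrated males, 20 and 24 reads in females and 5 and 2 reads in males, which is 0.114 and 0 CPM in castrated males, 2.04 and 3.08 CPM in females and 0.533 and 0.235 CPM in males. The female libraries were the highest and the castrated male libraries at or near 0, without overlap between the 3 groups. Pooled over the 2 libraries and scaled to depth, females had 6.40 times the reads of males (95% counting interval 2.86 to 16.8). The same ratio was 0.0227 (0.000563 to 0.133) for castrated males against females and 0.145 (0.00323 to 1.13) for castrated males against males. On the log2(CPM + 0.5) scale the fold change was 1.79 ± 0.41 in females against males (limma, adjusted p = 0.0391) and -2.45 ± 0.41 in castrated males against females (adjusted p = 0.0280), values that depend on the 0.5 added. Srgn did not pass the filter on low values without either female library. Without each of the other 4 libraries the call between females and males was lost (1.53 to 2.04, adjusted p = 0.0588 to 0.117). The call against females was lost without either castrated male library (-2.57 and -2.30, adjusted p = 0.249 and 0.214).

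Laptm5 stood at 8.19 and 7.63 CPM in castrated males, 9.30 and 8.72 CPM in females and 5.75 and 4.70 CPM in males. Female libraries were the highest, castrated males next and males lowest, with no overlap, at a log2 fold change of 0.74 ± 0.23 in females against males (limma, adjusted p = 0.0935) and 0.56 ± 0.23 in castrated males against males (adjusted p = 0.821). Cd52, which encodes a small surface glycoprotein of leukocytes, had the same order of groups, at 7.28 and 6.83 CPM in castrated males, 7.87 and 9.74 CPM in females and 4.90 and 6.46 CPM in males, and a log2 fold change of 0.60 ± 0.25 between females and males (adjusted p = 0.182). Its exons share 172 bases with Crybg2 on the opposite strand, which had 4204 reads over the 6 libraries against 378 for Cd52. Ptprc stood at 4.66 and 3.19 CPM in castrated males, 2.56 and 3.72 CPM in females and 2.24 and 4.46 CPM in males. The groups overlapped for Ptprc, and the interval of the log2 fold change of females against males, -0.88 to 0.81, leaves room for a difference in either direction. Coro1a, the coronin of leukocytes, stood at 4.21 and 3.76 CPM in castrated males, 3.68 and 6.54 CPM in females and 5.43 and 4.23 CPM in males.

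Among the T cell markers, genes of the receptor complex were high in male replicate 1, and Thy1 had another order of libraries. Cd3e, a chain of the CD3 complex that signals for the T cell receptor, stood at 2.05 and 2.50 CPM in castrated males, 1.23 and 2.44 CPM in females and 4.47 and 1.64 CPM in males, and its partner Cd3g at 1.82 and 3.19 CPM in castrated males, 0.920 and 3.97 CPM in females and 3.52 and 1.06 CPM in males. Trdc, the constant segment of the receptor's delta chain, stood at 1.93 and 1.94 CPM in castrated males, 3.17 and 3.08 CPM in females and 4.15 and 1.41 CPM in males. Cd7, a surface protein of T and natural killer cells, stood at 2.62 and 3.07 CPM in castrated males, 0.716 and 1.54 CPM in females and 3.83 and 0.235 CPM in males. Male replicate 1 was the highest library for Cd3e, Trdc and Cd7 and the second highest for Cd3g, and male replicate 2 was the lowest for Trdc and Cd7. For Trdc and Cd7 the 2 male libraries thus held both extremes, and 0 of these 4 genes were called in any comparison. For Cd3e the log2 fold change was -0.54 ± 0.45 in females against males and -0.24 ± 0.45 in castrated males against males, and both turned positive without male replicate 1 (0.08 and 0.37).

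Cd3d, another CD3 gene, had 3 and 3 reads in castrated males, 4 and 4 reads in females and 9 and 0 reads in males. Skap1, an adaptor of T cell signalling, had 3 and 2 reads in castrated males, 0 and 4 reads in females and 2 and 1 reads in males, and Gzmb, a granzyme of killer cells, had 1 and 0 reads in castrated males, 0 and 4 reads in females and 0 and 0 reads in males. None of these 3 passed the filter. For Gzmb, only female replicate 2, with 4 reads, was above the floor of 3 reads.

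Thy1, a surface protein of mouse T cells that fibroblasts and some basal keratinocytes also carry, was the most abundant marker, at 68.2 and 144 CPM in castrated males, 8.90 and 60.4 CPM in females and 80.5 and 97.05 CPM in males. Female replicate 1 was the lowest, and both female libraries were below all 4 male and castrated male libraries. The log2 fold change was -1.89 ± 0.70 in females against males (limma, adjusted p = 0.142) and 2.06 ± 0.70 in castrated males against females (adjusted p = 0.147). Without female replicate 2 these became -3.25 (adjusted p = 0.0334) and 3.41 (adjusted p = 0.0314), and without female replicate 1 they were -0.54 and 0.71. Per length, Thy1 was 45.4 and 78.1 times Cd3e in castrated males, 9.88 and 33.8 times in females and 24.5 and 80.4 times in males.

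Of 20 further T cell genes, 10 were tested, and 1 was called in each comparison with females. Among all genes tested, 3.7% were called higher in females than in males and 1.15% lower in castrated males than in females. Trbc2, a constant segment of the receptor's beta chain, was called higher in females than in males (log2 fold change 1.79 ± 0.35, limma, adjusted p = 0.0253) and lower in castrated males than in females (-1.73 ± 0.35, adjusted p = 0.0490), and 0 were called between castrated males and males. Trbc2 stood at 2.96 and 4.44 CPM in castrated males, 9.41 and 18.5 CPM in females and 3.41 and 3.52 CPM in males. It shares nearly identical sequence with Trbc1, so its reads may be split or shared between both, and Trac, the alpha chain segment, had 0 and 1 reads in castrated males, 3 and 4 reads in females and 0 and 0 reads in males. The median log2 fold change of the 10 genes was 0.49 in females against males and -0.62 in castrated males against females, where the median of all genes tested was -0.01 and 0.01. Trbc1, among the 10, had a mean of 2.45 CPM in females, 0.496 CPM in males and 0.626 CPM in castrated males. It could not have passed the filter on low values without the females, so its part in these medians depends on the group where it was high. The Trbc2 calls did not hold in every alternative. In females against males 7 of 14 alternatives kept it, with adjusted p-values of 0.0125 to 0.215. In castrated males against females 6 of 14 kept it, with adjusted p-values of 0.0187 to 0.395.

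None of the 5 Langerhans and myeloid markers tested was called in any comparison by limma, and at an unadjusted p below 0.05 there was 1, Fcer1g in castrated males against females. Cd207, the langerin gene that defines Langerhans cells, stood at 6.82 and 5.01 CPM in castrated males, 5.32 and 6.92 CPM in females and 6.60 and 8.46 CPM in males. The 3 groups overlapped, and the log2 fold change of females against males was -0.28 ± 0.27 with an interval of -0.90 to 0.34. Csf1r, the receptor of the growth factors that keep Langerhans cells and macrophages alive, stood at 16.7 and 22.5 CPM in castrated males, 18.2 and 22.3 CPM in females and 14.2 and 17.9 CPM in males. It shares 873 bases, or 15.1% of its exons, with Hmgxb3 on the opposite strand, a gene with 892 reads in all against 982 for Csf1r. Both female libraries were above both male libraries, at a level the limma test did not call. Without Csf1r, a sum added after the data were seen, the class came to 11.4 and 11.95 CPM in castrated males, 9.92 and 11.03 CPM in females and 11.5 and 13.4 CPM in males. Per length, Csf1r was 0.646 and 1.19 times Cd207 in castrated males, 0.902 and 0.849 times in females and 0.565 and 0.556 times in males.

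Fcer1g, the signalling chain of Fc receptors, stood at 1.93 and 1.48 CPM in castrated males, 0.818 and 0.128 CPM in females and 0.959 and 1.06 CPM in males. Castrated males were the highest and females the lowest, without overlap, at a log2 fold change of 1.27 ± 0.43 between them (limma, adjusted p = 0.146), which without female replicate 1 was 1.80 (adjusted p = 0.0467) from a single female library with 1 read. Fcer1g passed the filter on low values only through the castrated males, where it was highest, and had no value without either of them. Tyrobp, an adaptor of myeloid receptors, stood at 1.25 and 1.48 CPM in castrated males, 1.33 and 0.897 CPM in females and 1.17 and 1.76 CPM in males, and Itgax, the CD11c gene of dendritic cells, at 0.682 and 2.05 CPM in castrated males, 1.12 and 1.15 CPM in females and 0.852 and 1.64 CPM in males. Both overlapped between all groups. Itgam, the CD11b gene, had 3 and 10 reads in castrated males, 6 and 4 reads in females and 10 and 2 reads in males under its main identifier, and a second identifier with the same name, which shares 3450 bases of exon with it, had 1 to 8 reads. Lyz2, the lysozyme of macrophages and neutrophils, had 1 and 1 reads in castrated males, 2 and 6 reads in females and 0 and 1 reads in males.

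Class II antigen presentation genes of the myeloid list were called in both comparisons with females, and 0 of that list between castrated males and males, also 0 at an unadjusted p below 0.05. Of 20 further Langerhans and myeloid genes 10 were tested, and H2-Aa, H2-Ab1, Cd74 and Ciita were called higher in females than in males and lower in castrated males than in females. Of all genes tested, 3.7% were called higher in females than in males and 1.15% lower in castrated males than in females. H2-Eb1, another class II gene, was not called (adjusted p = 0.0674 in females against males and 0.0547 in castrated males against females). In castrated males against females, leaving out 1 library lost the call in 3 of 6 fits for H2-Aa and Ciita and in 2 of 6 for Cd74 and H2-Ab1, with adjusted p-values up to 0.303. In females against males it was lost in 1 of 6 fits for Ciita (adjusted p = 0.0997) and in 0 of 6 for the other 3. Cd74, the invariant chain of class II molecules, stood at 219 and 256 CPM in castrated males, 603 and 1354 CPM in females and 208 and 235 CPM in males. Per length it was 29.1 and 46.3 times Cd207 in castrated males, 103 and 177 times in females and 28.5 and 25.2 times in males. Its log2 fold change was 2.03 ± 0.31 in females against males (limma, adjusted p = 0.0122), and that of Ciita, the class II transactivator, 2.43 ± 0.34 (adjusted p = 0.00927). Keratinocytes can also make class II transcripts, and the cells that held these were not tested.

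S100a8 and S100a9, calprotectin genes of neutrophils that stressed keratinocytes also make, were called in both comparisons with females, and the interleukin 8 receptor gene Cxcr2 between females and males. In females against males these were 3 of 4 tested in a list of 8 neutrophil genes, beside 6.1% of all genes tested. S100a8 stood at 1.02 and 1.14 CPM in castrated males, 174 and 622 CPM in females and 0.533 and 0.352 CPM in males. S100a8 and S100a9 passed the filter only through the female libraries, where they were high, so the count of 3 of 4 depends on that group. Cxcr2 stood at 1.59 and 2.96 CPM in castrated males, 3.37 and 11.8 CPM in females and 0.959 and 0.705 CPM in males. Its call was lost in 5 of the 6 fits with 1 library left out and in 8 of all 14 alternatives (log2 fold change 1.55 to 3.22, adjusted p = 0.00906 to 0.248). The fourth gene tested, Mmp9, a gelatinase of neutrophils and other cells, was not called in any comparison, at 1.93 and 0.455 CPM in castrated males, 1.64 and 1.92 CPM in females and 2.02 and 4.11 CPM in males. The other 4 genes of the list had few reads: Mmp8 had 1 to 5 in each library, Csf3r had 1 in all, Ly6g had 2 in all, both in females, and Retnlg had 0. Of 6 mast cell genes, 5 (Cpa3, Mcpt4, Cma1, Ms4a2 and Fcer1a) had 0 reads in all 6 libraries, which allows up to 0.307 to 0.385 CPM by library.

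**Figure D4:**
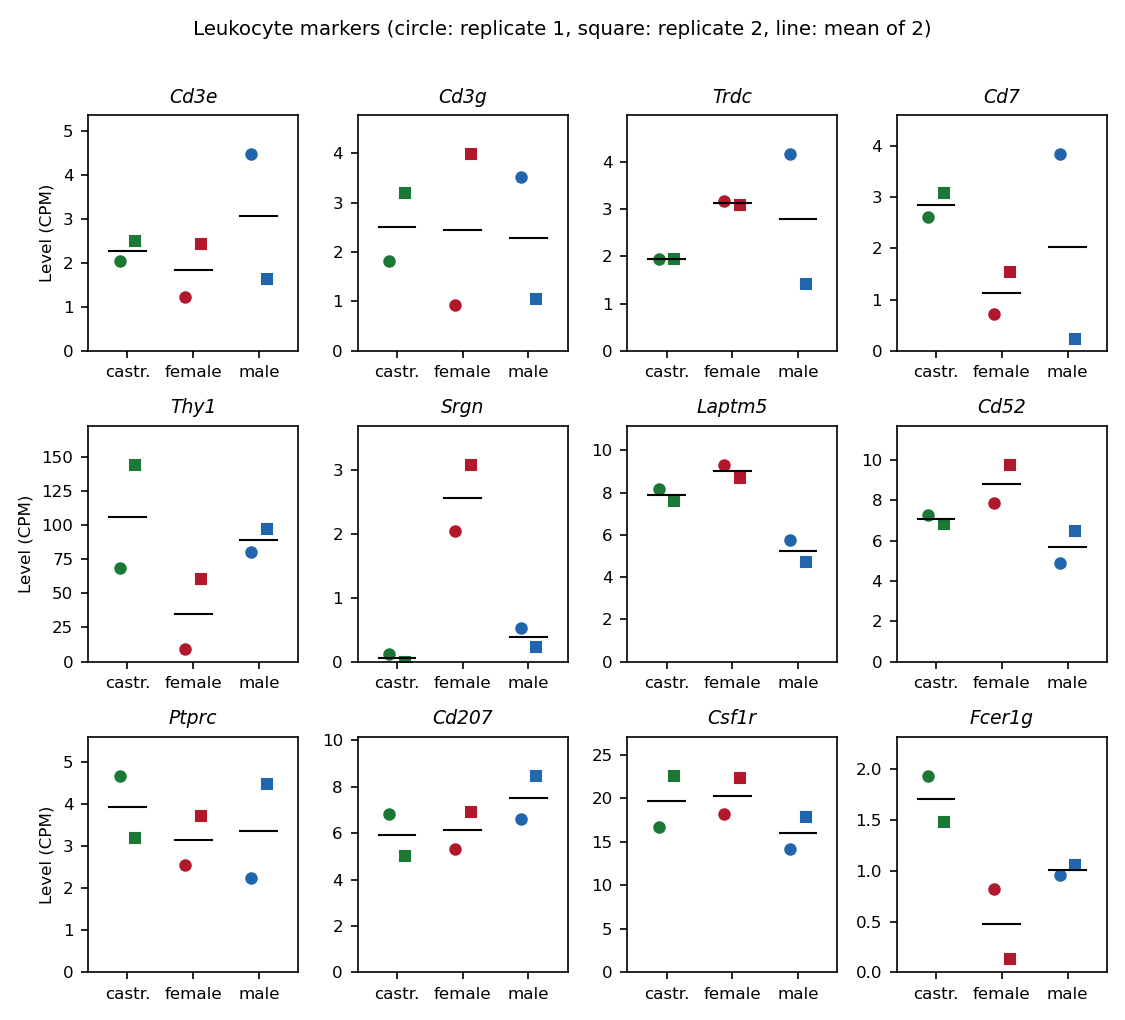
Levels of 12 leukocyte markers in CPM, with 1 point per library, circles for replicate 1, squares for replicate 2 and a line at the mean of 2. Cd3e, Trdc and Cd7 are highest in male replicate 1, Thy1 is lowest in the females, and Srgn is near 0 in castrated males.

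Merkel cell markers were almost absent. Krt20, the keratin that defines Merkel cells, had 1 read in all, in female replicate 2. Isl1, a transcription factor of Merkel cells and neurons, also had 1, in castrated male replicate 2. Atoh1, the transcription factor that specifies Merkel cells, had 1 and 0 reads in castrated males, 2 and 0 reads in females and 5 and 4 reads in males, so that only the 2 male libraries were above the floor. None of the 3 passed the filter on low values. Among further Merkel cell genes Sox2 had 0 reads in every library and Krt8 had 4 and 19 reads in castrated males, 11 and 11 reads in females and 42 and 11 reads in males.

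The stromal markers rested on 1 gene. Dcn, decorin, had 46 and 44 reads in castrated males, 103 and 35 reads in females and 197 and 64 reads in males, which is 5.23 and 5.01 CPM in castrated males, 10.5 and 4.49 CPM in females and 21.0 and 7.52 CPM in males. Male replicate 1 was the highest, female replicate 1 next, and the castrated male libraries were close together and below both males. The log2 fold change of castrated males against males was -1.22 ± 0.49 (limma, unadjusted p = 0.0333, adjusted p = 0.801), and without male replicate 1 it was -0.51. The other fibroblast and mural genes were at or near the floor: Lum, another proteoglycan gene, had 2 reads in all, Pdgfra, a receptor of fibroblasts, had 5, and Pdgfrb, a receptor of mural cells, had 9. Of 12 further stromal genes, Dpt, Mfap5, Twist2 and Rgs5 had 0 reads in every library, and 3 were tested, with 0 called in any comparison. Fbln1, a matrix protein gene, was lowest in males, at 7.05 and 8.54 CPM in castrated males, 8.08 and 8.85 CPM in females and 4.90 and 3.88 CPM in males (limma, unadjusted p = 0.0129 and adjusted p = 0.726 for castrated males against males, unadjusted p = 0.00614 and adjusted p = 0.0698 for females against males). Vim, an intermediate filament gene of many cell types, spanned 5.46 to 12.7 CPM and Col1a2, a collagen gene, 2.31 to 5.81 CPM over the 6 libraries, and castrated male replicate 2 had the highest sum of the 12.

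Of the endothelial markers, Pecam1, an adhesion protein that leukocytes such as Langerhans cells also carry, was measured at 3.98 and 4.78 CPM in castrated males, 4.40 and 5.00 CPM in females and 5.75 and 3.99 CPM in males, and the groups overlapped. Cdh5, the cadherin of endothelial junctions, had 0 and 1 reads in castrated males, 2 and 5 reads in females and 5 and 1 reads in males. Of 8 further endothelial genes, 4 were highest in male replicate 1, 2 in male replicate 2, 1 in female replicate 2 and 1 in castrated male replicate 1. The 3 that stood out most in male replicate 1 were named after their values were seen. Kdr, a receptor of vascular endothelial growth factor, had 0 and 1 reads in castrated males, 2 and 2 reads in females and 30 and 4 reads in males, Cldn5, a tight junction gene, had 2 and 1 reads in castrated males, 4 and 4 reads in females and 25 and 1 reads in males, and Emcn, an endothelial sialomucin, had 3 and 2 reads in castrated males, 1 and 3 reads in females and 13 and 0 reads in males. Egfl7, a gene of endothelial cells and the only further one tested, was highest in females instead, at 1.25 and 0.911 CPM in castrated males, 2.45 and 4.87 CPM in females and 1.92 and 1.53 CPM in males, and was not called. The globin genes Hba-a1 and Hbb-bs of red cells were also highest in male replicate 1, Hba-a1 at 2.27 and 3.64 CPM in castrated males, 2.15 and 3.72 CPM in females and 15.02 and 2.702 CPM in males. Alas2, the heme synthesis gene that completes the list of 3, was highest in castrated males, at 2.27 and 1.94 CPM in castrated males, 1.74 and 0.641 CPM in females and 1.28 and 1.53 CPM in males. Dcn, these 3 endothelial genes, both globins and Krt8 were all highest in male replicate 1, the library that was also highest for Cd3e, Trdc and Cd7. T cell genes as a whole did not share this order. Of the 20 further T cell genes, female replicate 2 was the highest library for 12 and male replicate 1 for 4. The part of male replicate 1 in the male means was not tested beyond leaving it out.

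**Figure D5:**
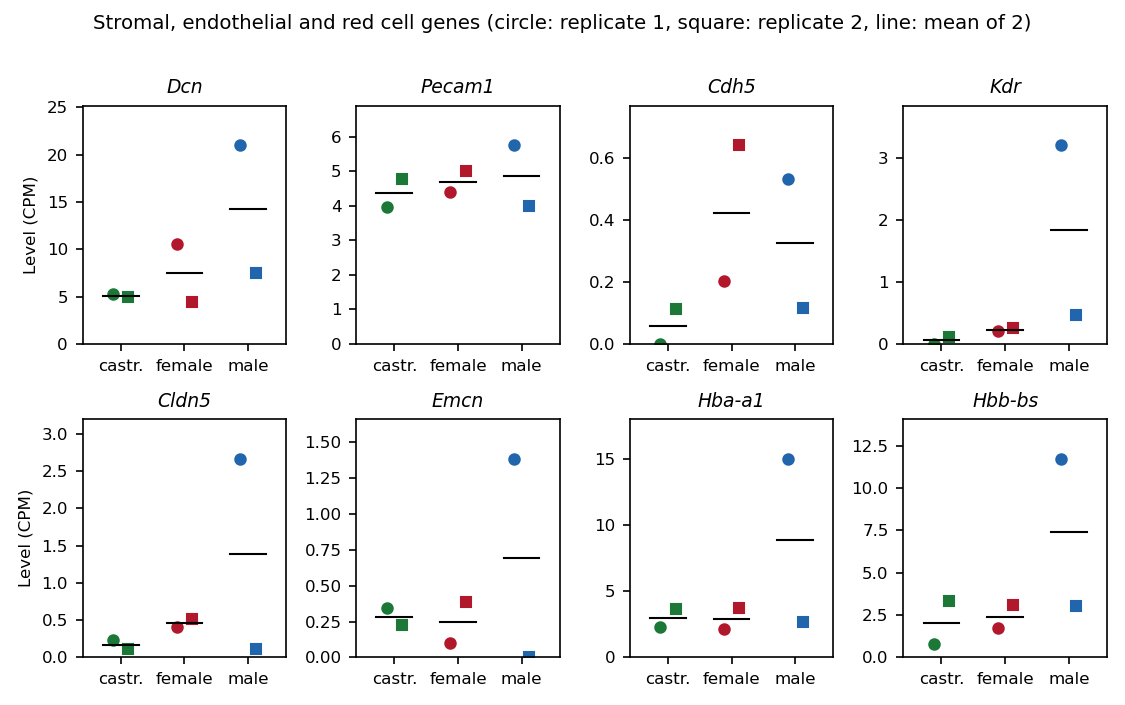
Levels of stromal, endothelial and red cell genes in CPM, with 1 point per library, circles for replicate 1, squares for replicate 2 and a line at the mean of 2. Male replicate 1 stands above the other 5 libraries for Dcn, Pecam1, Kdr, Cldn5, Emcn and both globins, and not for Cdh5. Kdr, Cldn5 and Emcn were picked after their values were seen. Egfl7 and Alas2 of the same lists, highest in other libraries, are not drawn.

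Across all 38 rows, the highest library was castrated male replicate 1 for 3, castrated male replicate 2 for 11, female replicate 1 for 2, female replicate 2 for 10, male replicate 1 for 8 and male replicate 2 for 4. By kind, castrated male replicate 2 led 6 of 8 melanocyte rows, female replicate 2 led 3 of 5 pan-leukocyte rows, and male replicate 1 led 4 of 8 T cell rows. Female replicate 2 led 3 of those 8 T cell rows. No 2 of the 3 groups overlapped for 5 of the 23 rows tested, Srgn, Laptm5, Cd52, Mitf and Fcer1g, beside 15.1% of all genes tested, and for the other 18 at least 1 pair of groups did. Srgn and Fcer1g passed the filter on low values only through the group where each was highest.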

How the data were processed

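The deposited table holds 1 column of scores per library. From the values, the authors had scaled the reads of each gene to a common total of 20000000 per library and rounded them before deposit. Per the submitters' processing notes, FastQC, STAR 2.7.5a, Picard and HTSeq 0.11.1 were used with GRCm38 or mm10. No source used here gives the annotation, the strand setting or the scaling. Dividing by the smallest step of each column gave whole reads, within a rounding error of 0.5 for 99.99% to 100% of values.

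Levels are CPM, relative to the total reads of a library, with TMM factors. Genes with at least 10 reads at the median depth (1.16 CPM) in 2 libraries and 15 reads in all were tested with limma 3.58.1 in R 4.3.3 on log2(CPM + 0.5), with 1 mean per group, a trended prior and all 6 libraries in 1 fit. Benjamini-Hochberg adjustment ran over the 15413 genes tested, and an adjusted p below 0.05 was called. Intervals of fold changes are at 95%. The negative binomial test planned for count tables was not used, because the deposited values are not counts. The procedure was tested on simulated data with a fixed spread between libraries, where genes with few reads were left unchanged. That test cannot show how the procedure does for the rare markers or at the spread seen in these libraries.

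The markers and the further gene lists were chosen with earlier results of these data known. All 37 markers, the sort genes, and of each further list at most 4 called genes by smallest p per comparison are named by rule, and others named without a call were chosen after their values were seen. Gene positions are from GENCODE M21 on GRCm38 and promoter windows from RefSeq on GRCm38.p6. Replicate numbers come from the sample titles, where 1 male library is numbered 3 in its library name and 2 in its title.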

Additional observations from a re-analysis of the deposited data

How the results depend on the processing

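Of the markers, 2 were called in females against males, and this fell to 0 with no filter beyond 1 read or with only the 2 groups compared in the fit, and to 1 (Mitf) with a pseudocount of 0.1 CPM or with limma voom on the recovered reads. Leaving out 1 library gave 0 to 1. In castrated males against females 1 was called, 0 with no filter, and 0 to 2 with 1 library left out. In castrated males against males 0 were called in every alternative run. Over all genes, 940 calls in females against males became 103 with no filter, 265 with only the 2 groups, and 49 to 1773 with 1 library left out. The 6 calls in castrated males against males became 2 with no filter, 11 with a pseudocount of 2 CPM, and 1 to 74 with 1 library left out. The 266 in castrated males against females became 33 with no filter, 88 with voom, 560 with only the 2 groups, and 21 to 1323 with 1 library left out. The cause of these moves was not tested. Without the filter, more genes entered the fit and the adjustment. Same-numbered libraries shared only a number (correlations of deviations 0.19, -0.01 and -0.15). With the number as a replicate block, 1 marker (Mitf) was called in females against males and 0 in castrated males against females, and 162 genes in that comparison. With 1 library left out, log2 fold changes that changed sign ranged, in females against males, from -0.46 to 0.37 for Ptprc and -1.17 to 0.076 for Cd3e. In castrated males against males they ranged from -0.12 to 0.98 for Dct, -0.047 to 0.64 for Pmel, -0.37 to 0.71 for Thy1, -0.18 to 0.67 for Ptprc and -0.85 to 0.37 for Cd3e. For Tyrp1 in castrated males against females the range was -0.052 to 1.66. The planned negative binomial tests were not run. With 13 of 38 rows under 10 reads in every library, depth limits what the rare markers can show.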
